A study of Mus musculus with 6 samples.

Results

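Antioxidant and NRF2 pathway genes were followed in Th17-polarised mouse CD4 T cells exposed to fine airborne particles or to their vehicle. The genes were 33 named members, chosen by symbol in the deposited gene table of 34745 genes: NRF2 itself, the proteins that control or partner it, and enzymes that remove peroxides, superoxide, haem and electrophiles. All 33 symbols were found, each on 1 gene ID, and 32 passed a filter on low counts and were tested. Splenic naive CD4 T cells of C57BL/6 mice (female, 6 weeks old) were cultured for 4 days on plates coated with antibodies to CD3 and CD28, in Th17 polarising conditions (IL-6, IL-23, TGF-beta, IL-2 and antibodies against IFN-gamma and IL-4). The PM2.5 group (3 libraries) received a suspension of particles under 2.5 micrometres at 100 µg/ml from 6 h after stimulation, and the PBS control (3 libraries) received PBS. Every culture also held 2-mercaptoethanol at 55 µM, a thiol that is itself a reductant, so both groups were measured in its presence. The labels do not say whether libraries of a group came from separate mice or cultures, so p-values measure the spread between these libraries only.

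NRF2, encoded by Nfe2l2, is a transcription factor that KEAP1 holds in the cytoplasm and marks for degradation; oxidants and electrophiles modify KEAP1 and let NRF2 reach the nucleus. There it pairs with a small MAF protein on the antioxidant response element of genes for thiol, haem and drug-handling enzymes, while BACH1 pairs with the same MAF proteins to repress those elements until haem displaces it. Much of this control acts on proteins, which RNA does not measure. Activated T cells produce reactive oxygen species and depend on thioredoxin, peroxiredoxins and glutathione to grow.

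The members did not move one way. In edgeR's quasi-likelihood test, with p-values adjusted over the 12967 genes tested, 10 of the 32 members rose in the PM2.5 group and 14 fell (threshold 0.05). Among all genes tested 35.2% rose and 35.3% fell, 70.6% together, so the 24 members called (75.0%) lay near that background. The median log2 fold change of the members was 0.01, against -0.01 over all genes tested. Changes of at least 2-fold passed for 5 members (15.6%, against 18.9% of all genes tested). They were Nfe2l1 and Hmox1 upward, where 6.51% of all genes rose as much, and Glrx, Bach1 and Osgin1 downward, where 12.4% fell as much. The groups did not overlap in 24 members, where 74.9% of all genes tested had groups that did not overlap. In bulk RNA, fewer cells of a type and less RNA per cell cannot be told apart.

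**Figure D1:**
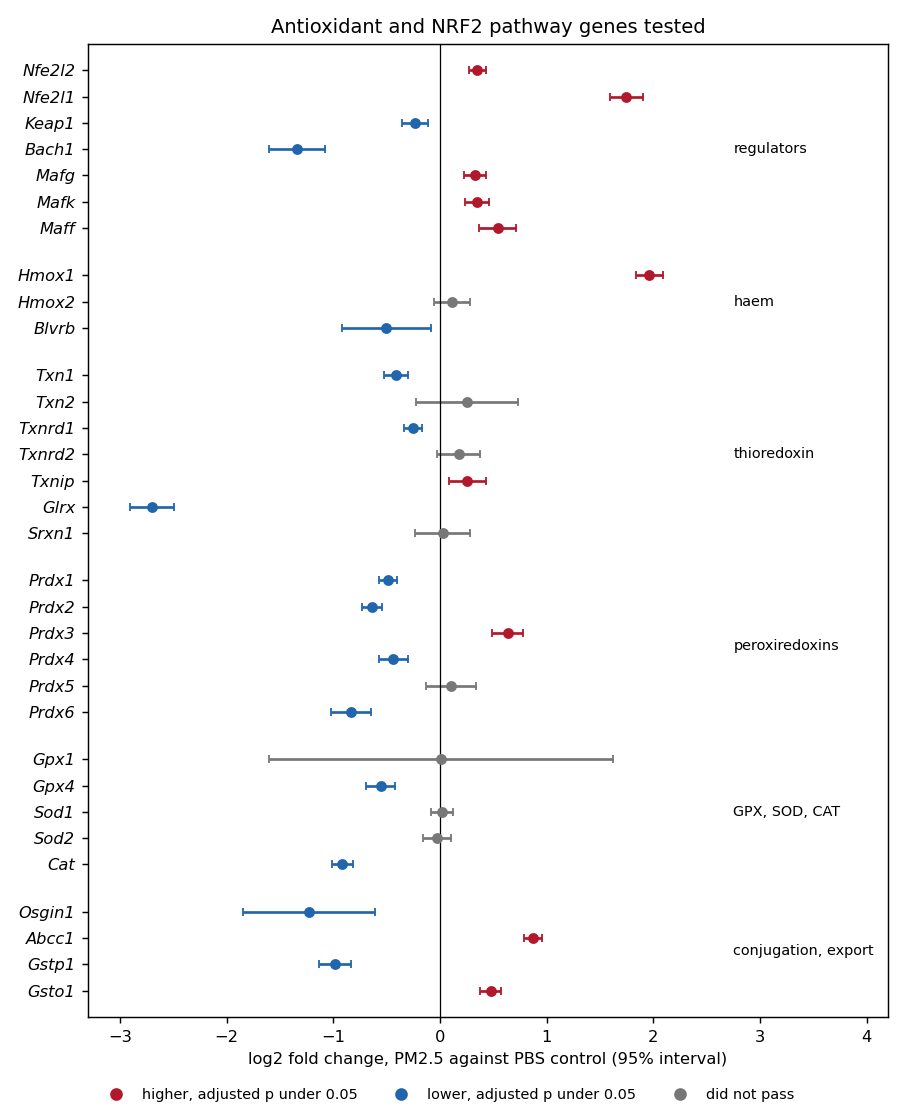
Log2 fold change of PM2.5 against PBS control for the 32 members tested, with 95% intervals from the edgeR fit, grouped by role; red and blue mark genes that passed an adjusted p of 0.05. Hmox1 (1.96) and Nfe2l1 (1.75) lie farthest to the right, Glrx (-2.70) farthest to the left, and the interval of Gpx1 spans -1.61 to 1.62.

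Libraries held 19511561 to 22353131 counts in the control and 25397965 to 27215853 in the PM2.5 group, so every PM2.5 library was deeper. Counts scaled to library size (CPM) carry TMM factors here, which were 1.02 to 1.03 and 0.978. Marker levels here are CPM of the library totals. The CD4 T cell markers Cd3e, Cd3d and Cd4 were abundant in all libraries but fell, their summed level going from 763 to 775 CPM in the control to 533 to 546 CPM. Of the Th17 genes, Il17a and Il17f fell and Il23r did not pass. Markers of other cells were lower in level and several also moved. The 4 stromal and endothelial genes summed to 82.5 to 88.0 against 47.0 to 49.9 CPM, nearly all of it Pecam1. The 3 CD8 and gamma-delta T cell genes summed to 40.4 to 41.5 against 23.2 to 25.8 CPM, most of it Trdc; Trdc and Cd8a fell, and Cd8b1 rose. The 5 neutrophil genes summed to 5.28 to 6.27 against 0.551 to 0.689 CPM, nearly all of it Ly6g, with S100a8, S100a9 and Elane at 0. The 5 dendritic cell genes summed to 0.903 to 1.25 CPM in the control and 2.56 to 3.46 CPM with PM2.5; Zbtb46 rose and carried the sum, Itgax fell, and Siglech and Clec9a were at 0. The 4 B cell genes summed to at most 1.34 CPM and the 3 NK cell genes to at most 0.0766 CPM. The part of these shifts in the results below was not tested.

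Among the 7 regulators, all passed, 5 upward and 2 downward. Over all genes tested 70.6% passed, 35.2% upward and 35.3% downward, and 74.9% had groups that did not overlap. The median size of the log2 fold change over all genes tested was 0.43. Nfe2l2 (ENSMUSG00000015839, chromosome 2, 75675513 to 75704641, mm10) stood at 83.3, 87.01 and 82.04 CPM in the control libraries and at 107, 107 and 107 CPM in the PM2.5 libraries. The 3 PM2.5 values were all above the control values and nearly equal to one another. The rise was 1.27-fold (log2 fold change 0.35, SE 0.04, adjusted p = 9.15e-06). Keap1 (ENSMUSG00000003308, chromosome 9, 21229730 to 21239332), the adaptor that hands NRF2 to the CUL3 ubiquitin ligase, had 66.4, 64.7 and 73.5 CPM in the control and 55.7, 59.6 and 58.4 CPM with PM2.5. It fell by a smaller step, 1.18-fold (-0.24, SE 0.06, adjusted p = 0.00307), without overlap between the groups. In the reference annotation 10.9% of the exonic bases of Keap1 are also exonic in Gm16754 on the opposite strand, and since the strand setting of the counting is not given in the sources used here, reads of the pair cannot be told apart.

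The largest regulator change was in Nfe2l1 (ENSMUSG00000038615, chromosome 11, 96817414 to 96829968), which encodes NRF1, a relative of NRF2 held at the endoplasmic reticulum and known for inducing proteasome genes. Its level was 40.4, 40.2 and 38.8 CPM in the control and 138, 119.6 and 144 CPM in the PM2.5 libraries. The PM2.5 libraries were all far above the control libraries, and the fit gave 3.36-fold (1.75, SE 0.07, adjusted p = 2.54e-08). Bach1 (ENSMUSG00000025612, chromosome 16, 87698945 to 87733346), the haem-sensing repressor of the pathway, moved down, from 27.05, 19.3 and 24.7 CPM to 9.32, 9.36 and 9.42 CPM. The control libraries were spread, replicate 2 being the lowest, while the PM2.5 libraries were nearly equal and below all of them; the fall was 2.53-fold (-1.34, SE 0.12, adjusted p = 5.28e-06).

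Bach1 and Nfe2l2, repressor and activator of the same elements, were set against each other per gene length. The ratio of Bach1 to Nfe2l2 in FPKM (fragments scaled to gene length and library total) was 0.182, 0.125 and 0.169 in the control libraries and 0.0488, 0.0493 and 0.0493 in the PM2.5 libraries. It was 3.19-fold lower on the log scale, with no overlap. A two-sided exact permutation test gave p = 0.10, the smallest that 3 against 3 libraries allow, and 0.12 after adjustment over the 6 ratios tested here. As Bach1 fell and Nfe2l2 rose without overlap, that outcome followed from the values of each gene and adds no evidence. With 1 FPKM added to both genes the log2 difference shrank from -1.67 to -1.22.

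The small MAF genes, whose products are the shared partners of NRF2 and BACH1, rose together by modest amounts. Mafg went from 76.1, 73.7 and 76.6 CPM to 92.2, 90.9 and 101 CPM (1.25-fold, adjusted p = 1.04e-04). Mafk went from 35.7, 37.8 and 38.8 CPM to 47.1, 48.4 and 47.3 CPM (1.27-fold, adjusted p = 1.05e-04). Maff, the least abundant of the 3 in CPM, went from 19.1, 17.9 and 16.5 CPM to 27.7, 25.9 and 24.2 CPM (1.45-fold, adjusted p = 1.13e-04). For each of them the lowest PM2.5 library was above the highest control library. Mafg shares 2.21% of its exonic bases with Sirt7, and Mafk 4.33% with Tmem184a.

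**Figure D2:**
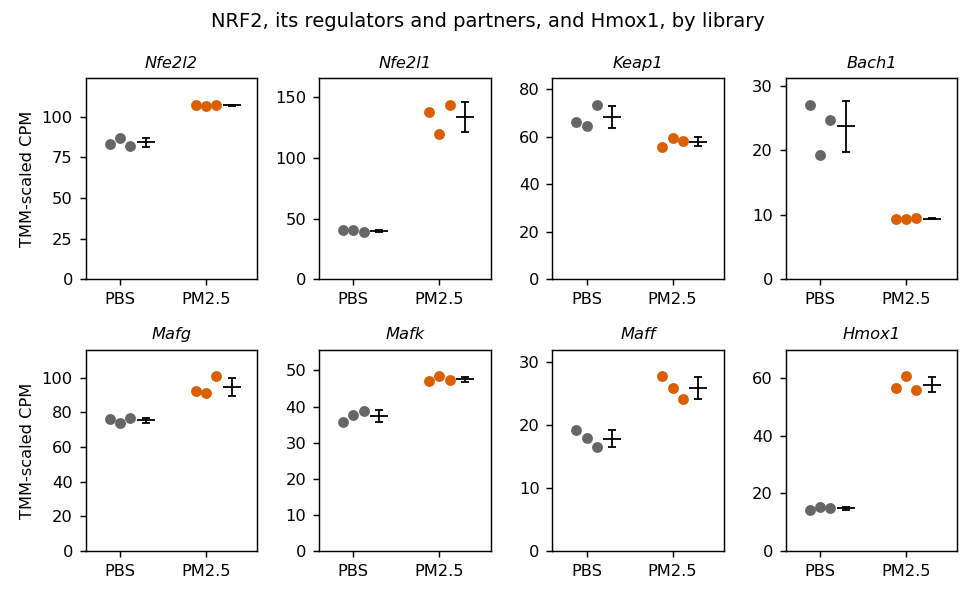
TMM-scaled CPM (linear axes from 0) of 7 regulators and Hmox1 in each library; points are libraries, and the bar with whiskers is the mean with its SD (n = 3). In all 8 panels the groups are apart: Keap1 and Bach1 are lower with PM2.5 and the other genes higher.

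Promoters of 4 of the 7 regulators hold the core letters of the antioxidant response element. Promoter sequences from RefSeq (GRCm38.p6, 250 bases before to 50 after a gene's start) were matched for 30 members, with 46 promoters; Hmox1, Abcc1 and Prdx6 had none. The core TGACNNNGC, searched on both strands, was in 9 of these 46 promoters (19.6%), belonging to Nfe2l2, Mafg, Mafk, Maff, Txnrd1, Srxn1, Prdx1, Sod1 and Me1, and in 12.4% of all 32851 promoters. Such a match is a description of letters, not a bound site. The stretches below, which show the core (or its reverse complement) in capitals before the start site, are those of NRF2, its 3 MAF partners and 3 enzymes.

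Nfe2l2, chr2:75704880-75704913, minus strand: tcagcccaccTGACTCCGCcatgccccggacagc
Mafg, chr11:120633746-120633784, minus strand: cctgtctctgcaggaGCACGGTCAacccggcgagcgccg
Mafk, chr5:139791508-139791535, plus strand: cgcgcgatcccggaaGCGGTGTCAgtac
Maff, chr15:79346494-79346532, plus strand: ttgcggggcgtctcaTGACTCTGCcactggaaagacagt
Prdx1, chr4:116685451-116685489, plus strand: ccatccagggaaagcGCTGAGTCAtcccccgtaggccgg
Txnrd1, chr10:82859099-82859137, plus strand: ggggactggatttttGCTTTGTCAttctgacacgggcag
Sod1, chr16:90220691-90220729, plus strand: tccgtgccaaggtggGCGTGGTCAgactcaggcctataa

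Members with the same core went different ways: Nfe2l2 and the 3 MAF genes rose, Prdx1 and Txnrd1 fell, and Sod1 and Srxn1 did not pass. The AP-1 letters TGANTCA, which overlap the core in the Prdx1 stretch and in Me1, were in 7 of the 46 member promoters (15.2%, against 7.81% of all), those of Glrx, Srxn1, Prdx1, Osgin1, Me1 and Gstp1. TGATGNAA, the letters of the C/EBP-ATF element, were in 0 of the 46 and in 3.97% of all promoters.

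Of the 3 haem degradation genes, 1 rose, 1 fell and 1 did not pass, where 35.2% of all genes tested rose and 35.3% fell. The gene that rose was Hmox1 (ENSMUSG00000005413, chromosome 8, 75093591 to 75100596), the inducible oxygenase that opens the haem ring. Hmox1 is a widely used readout of oxidant stress. It had 14.2, 15.2 and 14.9 CPM in the control libraries and 56.5, 60.5 and 55.8 CPM in the PM2.5 libraries. All PM2.5 libraries lay far above all control libraries, a rise of 3.90-fold (1.96, SE 0.06, adjusted p = 6.14e-10). Macrophages also express Hmox1. The 8 macrophage and monocyte symbols summed to 5.68 to 7.13 CPM of library totals in the control and 3.05 to 3.52 CPM with PM2.5. Most of that sum was Cd68, which with TMM scaling had 5.30, 4.69 and 4.09 against 2.52, 2.90 and 2.82 CPM. Lyz2 and C1qa had 0 counts in all 6 libraries. Cd14, too low to be tested, had 0.354, 0.0504 and 0.0871 CPM against 0.301, 0.431 and 0.322 CPM, also with TMM scaling. The constitutive oxygenase Hmox2 had 60.5, 57.8 and 53.3 CPM and 66.8, 55.6 and 63.4 CPM and did not pass (log2 fold change 0.12, 95% interval -0.05 to 0.28, adjusted p = 0.191). Without PM2.5 replicate 2 it passed (0.19, adjusted p = 0.0204), and 40.2% of its exonic bases overlap Cdip1 on the opposite strand, so its counts are uncertain.

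Blvrb, a biliverdin and flavin reductase best known from red cells, was scarce, at 2.65, 2.32 and 2.48 CPM against 1.54, 2.19 and 1.53 CPM. It passed as lower (-0.50, SE 0.19, adjusted p = 0.0348), on 38 to 60 counts a library. The call was lost with DESeq2 (adjusted p = 0.153), with the replicate block (0.0524), and when control replicate 1 (0.0972), control replicate 3 (0.0696), PM2.5 replicate 1 (0.111) or PM2.5 replicate 3 (0.110) was left out. Of the 6 erythroid genes, 5 had 0 counts in every library.

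The thioredoxin system, which passes electrons from NADPH to oxidised protein thiols, was lower in its cytosolic arm. Txn1 (ENSMUSG00000028367, chromosome 4, 57943373 to 57956411), cytosolic thioredoxin, had 135, 135 and 137 CPM in the control and 106, 107 and 93.6 CPM with PM2.5. The control libraries were nearly equal and every PM2.5 library was below them, a fall of 1.33-fold (-0.41, SE 0.05, adjusted p = 3.29e-05). Its reductase Txnrd1 (ENSMUSG00000020250, chromosome 10, 82859206 to 82897724) went from 191, 197 and 187 CPM to 166, 155 and 161 CPM, 1.19-fold lower (-0.25, SE 0.04, adjusted p = 1.20e-04), again without overlap.

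The mitochondrial counterparts did not pass. Txn2 had 52.6, 38.8 and 39.4 CPM against 51.0, 61.04 and 43.7 CPM, with overlapping groups and a wide interval of -0.23 to 0.73 (adjusted p = 0.275). Txnrd2, the mitochondrial reductase, had 14.5, 13.2 and 12.8 CPM against 13.9, 15.04 and 16.9 CPM (95% interval -0.02 to 0.38, adjusted p = 0.104), and it passed as higher without PM2.5 replicate 1 (0.24, adjusted p = 0.0436). The transcript of sulfiredoxin, Srxn1, which repairs overoxidised peroxiredoxins and is a standard NRF2 target, was at 7.25, 7.10 and 6.92 CPM and 8.46, 6.62 and 6.56 CPM (adjusted p = 0.850), with overlapping groups and an interval of -0.23 to 0.29.

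Txnip (ENSMUSG00000038393, chromosome 3, 96557957 to 96561883) encodes the protein that binds and inhibits thioredoxin and responds to glucose. Its values were 173, 195 and 177 CPM in the control and 221, 232 and 197 CPM with PM2.5. With TMM scaling the highest control library, replicate 2, came just under the lowest PM2.5 library, replicate 3. In FPKM, which carry no TMM scaling, control replicate 2 (28.6) lay above PM2.5 replicate 3 (27.8). The rise of 1.19-fold (0.26, SE 0.07, adjusted p = 0.0163) was lost on leaving out control replicate 1 (adjusted p = 0.0553), control replicate 3 (0.0671) or PM2.5 replicate 1 (0.0546). Its exons overlap Gm15441 on the opposite strand over 19.4% of their bases. The ratio of Txnip to Txn1 in FPKM was 0.195, 0.219 and 0.196 in the control and 0.317, 0.330 and 0.320 in the PM2.5 libraries, 1.59-fold higher (exact permutation p = 0.10, adjusted 0.12). In CPM Txnip rose and Txn1 fell without overlap, and library scaling cancels in a ratio. That outcome therefore followed from the values of each gene and adds no evidence.

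Glrx (ENSMUSG00000021591, chromosome 13, 75839868 to 75850151), cytosolic glutaredoxin, which removes glutathione from protein thiols, had the largest change of any member tested. It stood at 31.03, 29.4 and 29.0 CPM in the control and at 4.25, 5.25 and 4.27 CPM in the PM2.5 libraries. No control library came near the PM2.5 values, and the fall was 6.49-fold (-2.70, SE 0.09, adjusted p = 1.69e-09). In FPKM it went from 23.6, 22.2 and 22.2 to 3.09, 3.81 and 3.10, from FPKM rank 11 to rank 27 of the 33 members.

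Of the 6 peroxiredoxins, enzymes that reduce peroxides through a reactive cysteine and mostly take electrons from thioredoxin, 4 fell, 1 rose and 1 did not pass. Over all genes tested, 35.3% fell and 35.2% rose. Prdx1 (ENSMUSG00000028691, chromosome 4, 116685544 to 116700822), the abundant cytosolic form, went from 267, 274 and 252 CPM to 195, 187 and 184 CPM (1.40-fold lower, -0.49, SE 0.04, adjusted p = 1.36e-06). Prdx2 (ENSMUSG00000005161, chromosome 8, 84969587 to 84974834), also cytosolic, went from 228, 215 and 216 CPM to 149, 139.6 and 135 CPM (1.56-fold lower, adjusted p = 3.07e-07). Prdx6, which reduces phospholipid peroxides with glutathione, went from 168, 149 and 167 CPM to 86.1, 100.1 and 84.97 CPM (1.78-fold lower, adjusted p = 5.38e-05). In these 3 genes every PM2.5 library lay under every control library, where 74.9% of all genes tested had groups that did not overlap. The form of the endoplasmic reticulum, Prdx4, also fell, from 46.2, 42.7 and 40.4 CPM to 33.04, 31.4 and 31.2 CPM (1.35-fold, adjusted p = 8.79e-05).

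Prdx3 (ENSMUSG00000024997, chromosome 19, 60864051 to 60874556), the mitochondrial peroxiredoxin, went up, from 54.2, 57.4 and 49.99 CPM to 89.8, 82.7 and 78.3 CPM. Every PM2.5 library was above every control library, and the rise was 1.55-fold (0.63, SE 0.06, adjusted p = 1.05e-05). Prdx5, found in mitochondria, peroxisomes and cytosol, had 40.1, 35.5 and 32.1 CPM against 39.6, 41.9 and 34.2 CPM (interval -0.13 to 0.34, adjusted p = 0.377). Parts of Prdx1, Prdx2, Prdx5 and Prdx6 are shared with other transcripts. Of the 50-base windows, 8.81% for Prdx1 and 12.04% for Prdx2 also occur in transcripts of other genes. These are mainly pseudogenes and, for Prdx2, its neighbours Junb and Rnaseh2a. The share was 15.5% for Prdx5, with Trmt112, and 0.156% for Prdx6. For Prdx5, 19.1% of the exonic bases overlap Trmt112. No such windows or overlaps were found for Prdx3 and Prdx4.

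After these values were seen, mitochondrial and cytosolic relatives were set against each other within each library, in FPKM. The ratio of Prdx3 to Prdx1 was 0.561, 0.580 and 0.549 in the control libraries and 1.27, 1.22 and 1.18 in the PM2.5 libraries, 2.18-fold higher. In FPKM the order of the pair turned round, but in CPM Prdx1 stayed above Prdx3 in all PM2.5 libraries. There Prdx1 had 195, 187 and 184 CPM and Prdx3 had 89.8, 82.7 and 78.3 CPM. The order thus depends on the gene lengths behind the FPKM. Txn2 to Txn1 went from 0.0646, 0.0476 and 0.0475 to 0.0798, 0.0944 and 0.0773 (1.59-fold higher). The ratio of Txnrd2 to Txnrd1 went from 0.0358, 0.0316 and 0.0325 to 0.0395, 0.0458 and 0.0493 (1.34-fold higher). In these 3 pairs the groups did not overlap, and each gave an exact permutation p of 0.10, adjusted 0.12 over the 6 ratios. For Prdx3 to Prdx1 that outcome was fixed beforehand, as Prdx3 rose and Prdx1 fell without overlap, so it adds no evidence. Txn2 and Txnrd2 did not pass on their own, while Txn1 and Txnrd1 fell, so these ratios also carry the falls of the cytosolic genes. Sod2 to Sod1, the superoxide dismutases of mitochondria and cytosol, gave overlapping groups: 0.0626, 0.0642 and 0.0615 against 0.0597, 0.0630 and 0.0592 (exact permutation p = 0.30, adjusted 0.30).

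**Figure D3:**
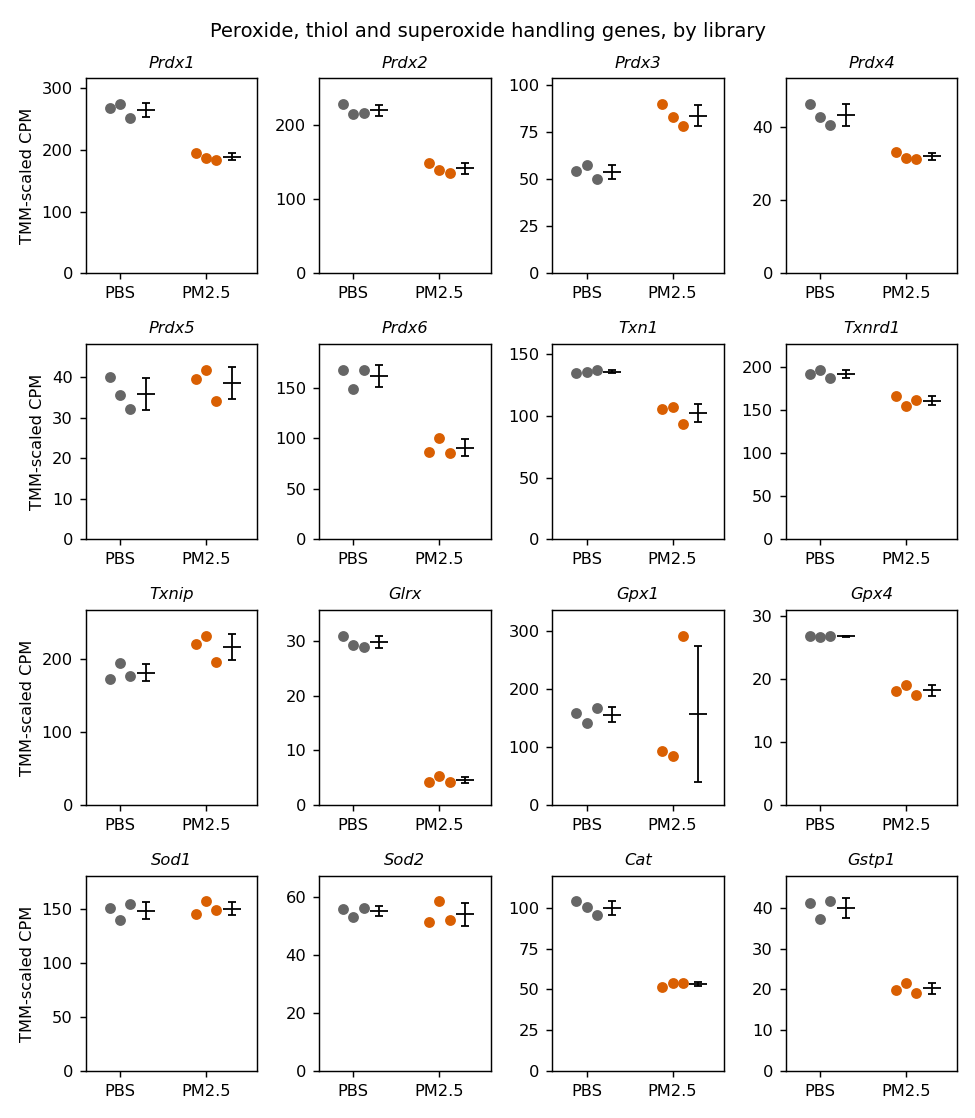
TMM-scaled CPM (linear axes from 0) of 16 members that handle peroxides, thiols, superoxide and electrophiles, by library; points are libraries, and the bar with whiskers is the mean with its SD (n = 3). Prdx3 and Txnip are higher with PM2.5, Prdx5, Sod1 and Sod2 overlap, and in Gpx1 PM2.5 replicate 3 stands at 292 CPM against 92.8 and 84.3 CPM for replicates 1 and 2.

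Catalase and the glutathione peroxidases remove hydrogen and lipid peroxides. Cat (ENSMUSG00000027187, chromosome 2, 103453849 to 103485160), the peroxisomal catalase, fell from 104, 100.5 and 95.8 CPM to 51.6, 53.9 and 53.6 CPM. The PM2.5 libraries held 1.89-fold less (-0.92, SE 0.04, adjusted p = 2.17e-08). Gpx4 (ENSMUSG00000075706, chromosome 10, 80047166 to 80056439), which protects membranes against lipid peroxidation and ferroptosis, went from 26.8, 26.8 and 26.95 CPM to 18.2, 19.1 and 17.4 CPM, 1.47-fold lower (-0.56, SE 0.06, adjusted p = 1.32e-05). Of the 50-base windows of its transcripts, 34.7% also occur in the pseudogene Gpx4-ps2, so its level is uncertain.

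Gpx1 (ENSMUSG00000063856, chromosome 9, 108338903 to 108340343), the main cytosolic glutathione peroxidase, gave no group difference that could be read. It had 158, 141 and 167 CPM in the control and 92.8, 84.3 and 292 CPM with PM2.5. Replicates 1 and 2 of the PM2.5 group were at 0.597 and 0.542 times the control mean, and replicate 3 at 1.88 times. The log2 fold change was 0.01 with an interval of -1.61 to 1.62 (adjusted p = 0.993); without PM2.5 replicate 3 it was -0.81 (adjusted p = 2.71e-04). Such a jump was rare: of the 2755 genes that reached 100 CPM in a PM2.5 library, 13 (0.472%) had a highest library at least 2 times the next one, and Gpx1 (3.14 times) was the only member of the 33 among them. None of the 50-base windows of its transcripts occurs in another gene, and no other gene overlaps its exons.

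Gpx1, Gpx4, Txnrd1 and Txnrd2 are the selenoproteins among the 33, and are shown here because their transcripts share a feature that the choice of members did not use: a TGA that is read as selenocysteine rather than as a stop. The coding stretches from GENCODE M21 (GRCm38) carry that codon in capitals. In the reductases it is the last but one codon, 612 of 613 in Txnrd1 and 526 of 527 in Txnrd2, and in the peroxidases it lies inside, at codon 47 of 201 in Gpx1 and 129 of 253 in Gpx4, counted in the transcript with the longest coding sequence.

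Txnrd1, codon at chr10:82896037-82896039, plus strand: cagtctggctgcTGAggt
Txnrd2, codon at chr16:18477772-18477774, plus strand: gtgactggttgcTGAggc
Gpx1, codon at chr9:108339451-108339453, plus strand: gtcgcgtctctcTGAggcaccacgatc
Gpx4, codon at chr10:80054737-80054739, plus strand: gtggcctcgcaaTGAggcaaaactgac

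Of the 4, Txnrd1 and Gpx4 fell, and Txnrd2 and Gpx1 did not pass, where 35.3% of all genes tested fell.

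The superoxide dismutases showed no change that passed. Sod1 (ENSMUSG00000022982, chromosome 16, 90220742 to 90226322), which turns superoxide into hydrogen peroxide in the cytosol, had 150.4, 139.8 and 155 CPM against 145, 157 and 148 CPM (interval -0.08 to 0.12, adjusted p = 0.737). Sod2, its mitochondrial counterpart, had 55.8, 53.2 and 56.3 CPM against 51.4, 58.5 and 52.03 CPM (interval -0.16 to 0.10, adjusted p = 0.659). In both genes the groups overlapped. Sod2 shares 21.05% of its 50-base windows with transcripts of other genes. These windows come from a GENCODE M21 gene at 13006846 to 13040063, wider than the deposited gene at 13007839 to 13018119. The share within the counted gene is therefore not known.

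Among the genes of conjugation, export and growth control, 2 rose, 2 fell and 1 was not tested. Over all genes tested, 35.2% rose and 35.3% fell. Abcc1 (ENSMUSG00000023088, chromosome 16, 14361558 to 14475737), the pump MRP1 that exports glutathione conjugates, rose from 85.2, 85.2 and 80.8 CPM to 157, 154 and 148 CPM (1.83-fold, 0.87, SE 0.04, adjusted p = 1.17e-08). Gsto1, an omega-class transferase with glutaredoxin-like activity, rose from 41.9, 41.6 and 40.5 CPM to 58.9, 56.6 and 57.02 CPM (1.39-fold, adjusted p = 4.01e-06). Gstp1 (ENSMUSG00000060803, chromosome 19, 4035407 to 4037921), the pi-class transferase that conjugates electrophiles to glutathione, fell from 41.2, 37.2 and 41.6 CPM to 19.96, 21.6 and 19.1 CPM (1.98-fold, -0.98, SE 0.07, adjusted p = 4.03e-07). It shares 33.7% of its 50-base windows with its neighbour Gstp2 and 20.3% with Gstp-ps, so its level is uncertain. In none of these 3 did the groups overlap, nor did they in 74.9% of all genes tested.

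Osgin1, an oxidative-stress-induced growth inhibitor, was near the limit of detection, with 21, 24 and 23 counts in the control libraries and 9, 12 and 13 in the PM2.5 libraries. It fell 2.34-fold (-1.23, SE 0.28, adjusted p = 0.00259). Malic enzyme Me1, a source of NADPH and an NRF2 target in liver, was the member not tested, with 1 count in all in the control and 6 in the PM2.5 group; a count of 0 allows up to 0.151 CPM in a control library (3 counts, counting error only).

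**Figure D4:**
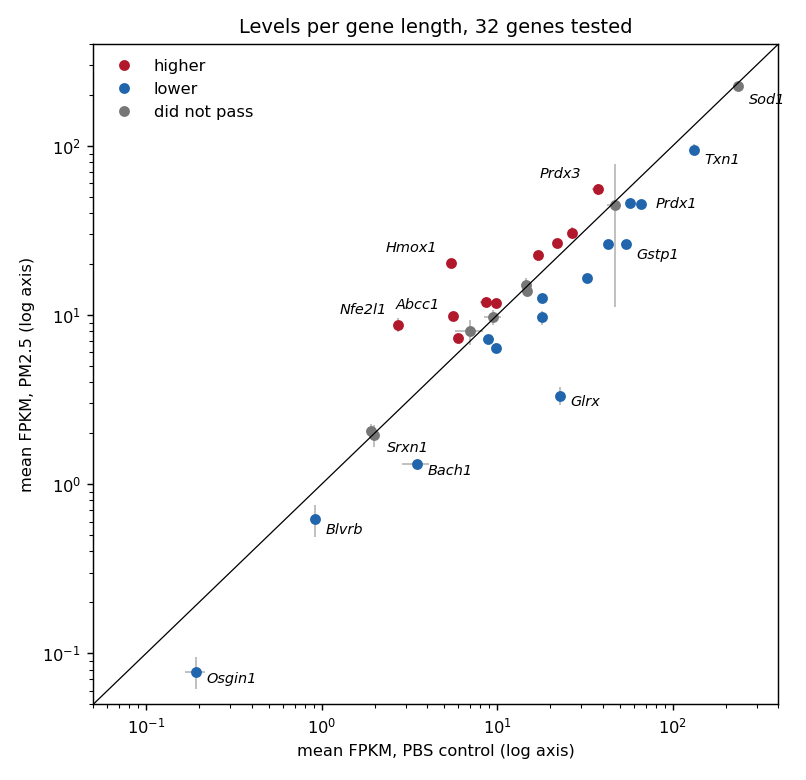
Mean FPKM of the 32 members tested in the PBS control (x) and the PM2.5 group (y), both on log axes, with SDs over 3 libraries as grey lines and the line of equality. Sod1 and Txn1 have the highest FPKM in both groups, Hmox1 and Nfe2l1 lie above the line, and Glrx, Bach1 and Osgin1 below it.

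Sod1 had the highest FPKM of the members in both groups, at 235 ± 13.2 in the control and 227 ± 8.86 with PM2.5 (SD, n = 3). Txn1 followed at 132 ± 1.94 and 95.03 ± 6.93 FPKM. In the control Prdx1 came next at 66.1 ± 2.52 FPKM, ahead of Txnrd1 (57.3 ± 1.19) and Gstp1 (54.03 ± 3.49), the last 2 lying within their spread of each other. In the PM2.5 group Prdx3 came next at 55.3 ± 3.84 FPKM, ahead of Txnrd1 (45.99 ± 1.62) and Prdx1 (45.1 ± 1.41), which did not differ beyond their spread. Gpx1 cannot be placed among these, as it had 44.8 ± 33.6 FPKM with PM2.5 and 83.6 FPKM in replicate 3. Hmox1 moved from rank 26 of 33 to rank 12, and Nfe2l1 from rank 28 to rank 22. Summed over the members, FPKM were 916 to 952 in the control libraries and 812 to 838 in the PM2.5 libraries, and for the 6 peroxiredoxins 184 to 197 and 151 to 166. FPKM carry no TMM scaling, and on that scale the median of all genes lay 0.06 lower in log2 than with TMM. The order of genes by FPKM rests on the fixed length of each gene. For Prdx1 and Gpx1 the length behind the FPKM is longer than their exonic bases in GENCODE M21 (3043 and 1441). FPKM ranks may therefore misplace genes. By control mean CPM, Prdx1 (264), Prdx2 (220) and Txnrd1 (192) were among the members above Sod1 (148).

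Pathway genes outside the 33 also moved both ways. Of 51 further NRF2 and antioxidant genes, 42 were tested; 9 rose and 17 fell. The share called was 61.9%, against 70.6% of all genes tested, and the median log2 fold change was -0.11. The usual NRF2 readouts Nqo1, Gclc and Gclm moved little. Nqo1, the quinone reductase, had 1.77, 2.27 and 2.18 CPM against 2.07, 1.80 and 2.34 CPM (interval -0.40 to 0.40, adjusted p = 0.998). Gclc, the catalytic subunit of glutathione synthesis, went from 66.9, 73.3 and 66.9 CPM to 82.2, 79.8 and 77.9 CPM and passed as 1.16-fold higher (adjusted p = 0.00220), while its modifier Gclm had 21.97, 22.7 and 22.99 CPM against 21.5, 21.9 and 19.1 CPM (-0.11, adjusted p = 0.162). Gclm passed as lower with library totals (-0.18, adjusted p = 0.0404) and with the filter at 5 CPM (-0.17, adjusted p = 0.0453).

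Among the larger changes, Slc7a11, the cystine importer that feeds glutathione synthesis, rose from 0.177, 0.0504 and 0.131 CPM to 4.81, 5.13 and 6.00 CPM; its control counts were 4, 1 and 3. Sesn2, a stress-induced regulator of mTORC1, rose from 41.1, 40.2 and 38.97 CPM to 193, 191 and 191 CPM (4.78-fold, adjusted p = 1.02e-11). The reductase Txnrd3 rose from 2.77 ± 0.572 to 8.53 ± 1.61 CPM (SD, n = 3; 3.06-fold, adjusted p = 2.49e-05). The conjugating and reducing enzymes Mgst2 (4.18-fold lower, adjusted p = 5.99e-07), Mgst3 (2.31-fold, 6.31e-06), Gstk1 (2.27-fold, 7.80e-06) and the aldo-keto reductase Akr1b8 (2.32-fold, 2.46e-07) fell. Of the 13 detoxification, conjugation and export genes tested, 7 fell, 1 rose and 5 did not pass, where 35.3% of all genes tested fell and 35.2% rose. The NADPH-producing Idh1 fell 2.58-fold (adjusted p = 4.05e-07), and the ferritin heavy chain Fth1, which stores iron and is an NRF2 target, went from 711, 687 and 697 CPM to 344, 331 and 341 CPM (2.06-fold lower, adjusted p = 3.54e-10).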

How the data were processed

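RNA-seq of 6 libraries was used, 3 from PBS control and 3 from PM2.5 cultures. The authors deposited raw counts per Ensembl gene, per the file headers, and FPKM values, which for 9540 genes with over 100 counts equal the count over the library total and 1 fixed gene length to within 0.000516%. Per the submitters' processing notes TopHat2 2.0.6 and the mm10 build were used. The sources used here do not name the counter, annotation or strand setting. Members and lists were chosen with earlier results of these data known.

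Genes were kept with filterByExpr (minimum count 10, minimum total 15), which left out 21778 genes, and fitted over all 6 libraries with edgeR 4.0.16 (R 4.3.3), using TMM factors and robust glmQLFit; quasi-likelihood F tests were two-sided. P-values were adjusted by Benjamini-Hochberg over 12967 genes. Each SE was derived from the fold change and its F statistic. The fit was tested on simulated data. Replicates of a group differed by more than counting error (chi-square per degree of freedom 7.57 to 9.89), and each counted once. Ratios used exact permutation tests. Exon overlaps and shared 50-base windows come from GENCODE M21. All 33 members are named; of the 51 other genes, those with at least 5 CPM in a group and a 2-fold called change, with Nqo1, Gclc and Gclm. Alternatives were library totals, relative log expression factors, DESeq2 1.42.0, no filter, a filter at 5 CPM, limma 3.58.1 on log2(FPKM + 1) and log2(FPKM + 0.1), a replicate block and leaving out each library. One marker gene and one overlapping gene are not reported here.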

Additional observations from a re-analysis of the deposited data

How the results depend on the processing

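No member called in one direction was called in the other under any of the 14 alternatives; 9 to 11 members rose and 12 to 14 fell, and of the other pathway genes 8 to 10 rose and 16 to 21 fell. Members that lost or gained a call were Blvrb, Txnip, Hmox2, Txnrd2 and Gpx1, as given with their values. The filter at 5 CPM left 30 members.

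The median of the members (0.012) lay near 0 and changed sign: -0.053 with library totals, -0.037 with the 5 CPM filter, -0.067 with limma on log2(FPKM + 1), -0.071 with limma on log2(FPKM + 0.1), and -0.0067 with the replicate block; leaving out 1 library gave -0.040 to 0.025. In the same order as the first 4 settings, all genes shifted by -0.064, -0.059, -0.060 and -0.063. Signs of members near 0 also turned. Srxn1 was -0.038, -0.033, -0.031 and -0.047 (-0.102 to 0.096 without 1 library). Gpx1 was -0.058, -0.053, -0.288 and -0.299, -0.231 with the block, and -0.805 to 0.307 without 1 library. Sod1 was -0.047, -0.042, -0.045 and -0.045 (-0.024 to 0.047 without 1 library), and Sod2 -0.088 to 0.0072 without 1 library. Nqo1 was -0.064 with library totals, -0.00067 with DESeq2, -0.037 and -0.061 with limma, and -0.106 to 0.093 without 1 library. The ratio of Bach1 to Nfe2l2 was -1.22 in log2 with 1 FPKM added. The cause was not tested.

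Libraries with the same replicate number did not deviate together (correlations -0.00753, -0.00674 and 0.0481), so the numbers were not taken as pairs. With the replicate block 10 members rose and 13 fell, and 4534 and 4468 of all genes. Depth limits Osgin1, Blvrb and Me1.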
